A study of Mus musculus with 21 samples.

Results

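Mouse CD8 T cells kept under repeated T cell receptor (TCR) stimulation with the antioxidant N-acetylcysteine (NAC) were compared with cells that were stimulated once and then rested without it. The comparison covered 6 of the 21 libraries of the study (3 NAC chronic and 3 vehicle acute), and the genes described were those with at least 1 RPKM (reads per unit of gene length and of sequencing depth) in at least 3 of these 6 libraries. This rule took 10935 of the 13202 genes of the deposited table and left out 2267. Of the genes taken, 480 passed through NAC chronic libraries alone, with at least 1 RPKM in all 3 of them and in no vehicle acute library. Another 174 passed through vehicle acute libraries alone in the same sense. The other 10281 reached 1 RPKM in at least 1 library of each group. A gene that passed through 1 group alone had to differ, so counts over genes that passed are descriptions of what was measurable. Of the genes named below, Penk, Egr2, Cd200, Gng11, Slc17a6, Slc30a2, Sqrdl, Gsta4, Hspa1a, Hspa1b, Foxp3, Itgam and Cd79a passed through NAC chronic libraries alone. Igfbp4, Gzmk, Adam19, Il24, Ifit3 and Gpx8 passed through vehicle acute libraries alone. For these genes the lack of overlap between these groups followed from the filter, and their p-values are descriptions.

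All groups started from C57BL/6 CD8 T cells, taken from spleen and lymph nodes by negative selection and activated on plates with anti-CD3 and anti-CD28 for 48 h. NAC chronic cells were then moved every 48 h to fresh plate-bound anti-CD3 in medium with 10 mM NAC, until harvest on day 8. Vehicle chronic cells, used here as a second point of comparison, had the same repeated anti-CD3 with vehicle. Vehicle acute cells had vehicle and no anti-CD3 after the first 48 h. The medium of all 3 groups held interleukin 2 and the thiol β-mercaptoethanol, so no group was free of an added thiol. No group of acute cells with NAC was analysed here, so in NAC chronic against vehicle acute the repeated stimulation and NAC cannot be told apart. Vehicle chronic libraries are therefore given beside both groups, and each comparison shares libraries with the others.

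Repeated antigen receptor signalling drives T cells towards exhaustion, a state with sustained inhibitory receptors such as PD-1, LAG-3 and TIM-3, NR4A and TOX transcription factors, and weaker cytokine production and self-renewal. Stem-like cells within such populations keep the transcription factor TCF-1, encoded by Tcf7. NAC is deacetylated to cysteine, which feeds glutathione synthesis, and its thiol can also bind metal ions. The study's title places mitochondrial dysfunction and its reversibility at the centre, and this comparison asks which transcripts still differed from those of rested cells although NAC was present, and which lay beyond their level.

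Libraries held 14421378 to 15404084 reads in NAC chronic cells, 15950688 to 17539278 in vehicle chronic cells and 14696045 to 17214432 in vehicle acute cells. Libraries of 1 group had Pearson r of 0.998 across genes and still differed by more than sampling noise. The labels do not say that they came from separate cultures or animals, so p-values measure the spread between libraries of a group, which may be technical. That spread was pooled over all 7 groups and 21 libraries of the study, including groups not described here. The SE of a gene is therefore the same in each comparison. Changes are log2 differences of group means on the log2(RPKM + 1) scale with their standard error (SE), a scale that understates the change of low genes. Means are given ± SD over the 3 libraries of a group. A gene was called higher or lower at an adjusted p under 0.05 (limma, Benjamini-Hochberg, two-sided). The coreceptor genes Cd8a and Cd8b1 were abundant in every library, while Cd4 and some myeloid genes were highest with NAC. In bulk RNA, fewer cells of a type and less RNA per cell cannot be told apart. The 50 most-read genes took 10.4% to 10.5% of the reads in NAC chronic libraries, 14.7% to 14.9% in vehicle chronic libraries and 11.5% to 11.9% in vehicle acute libraries.

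NAC chronic cells differed from vehicle acute cells in 8127 genes (74.3% of those described), of which 4420 were higher (40.4%) and 3707 lower (33.9%). At least 2-fold differences were seen for 1054 genes that were higher (9.64%) and 590 that were lower (5.40%). For 9061 genes (82.9%) the 3 NAC chronic libraries did not overlap with the 3 vehicle acute libraries. Among the 10281 genes that passed in both groups, 38.6% were higher and 34.4% lower. Beside this, 7086 genes (64.8%) differed between vehicle chronic and vehicle acute cells, with 2817 higher (25.8%) and 4269 lower (39.0%). In the remaining pair 7432 genes (68.0%) differed. NAC chronic cells had 4789 genes higher (43.8%) and 2643 lower (24.2%) than vehicle chronic cells. With every library rescaled to the same median, 4012 genes were higher and 4039 lower in NAC chronic against vehicle acute. The same counts were 3476 and 3560 for vehicle chronic against vehicle acute, and 3571 and 3655 for NAC chronic against vehicle chronic. The rescaling moved the median log2 change of NAC chronic over vehicle chronic from 0.13 to 0.00036. The direction of small changes thus depended on the scaling. The genes named below kept their call in NAC chronic against vehicle acute under it, but Cd247, Cd40lg, Cd79a, Cd79b, Nkg7 and Pmel were not checked.

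**Figure D1:**
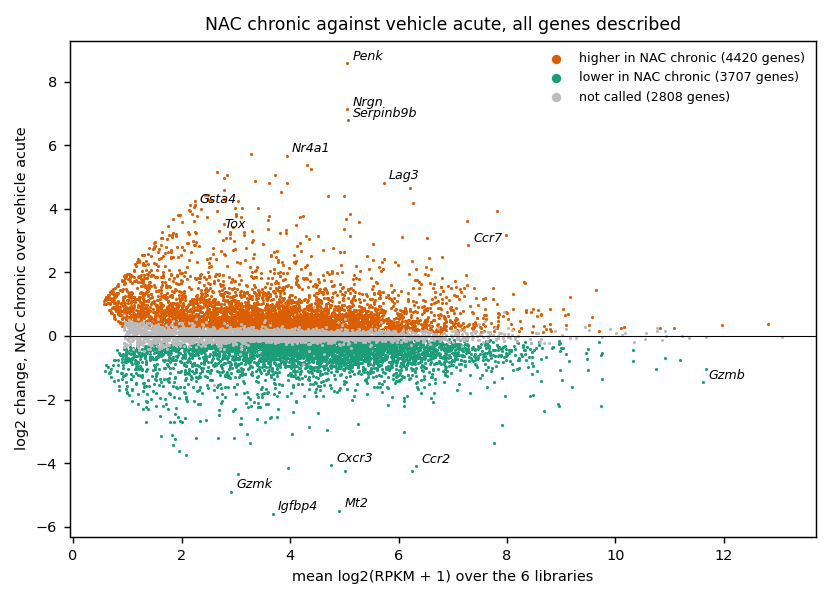
Each point is 1 of the 10935 genes described, with its mean log2(RPKM + 1) over the 6 libraries on the x axis and the log2 change of NAC chronic over vehicle acute on the y axis, and colours mark the 4420 genes called higher, the 3707 called lower and the 2808 not called. Of the genes ranked in the text, which leave out predicted genes, small RNAs and antigen receptor segments, Penk has the highest change, 8.58, and Igfbp4 the lowest, -5.60.

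The genes called in NAC chronic against vehicle acute fell into 5 kinds by where vehicle chronic cells stood. Of the 4420 higher genes, 744 (6.80% of the genes described) were higher in both chronic groups with no called difference between them, 445 (4.07%) were nearer to the acute level with NAC and 923 (8.44%) were farther from it with NAC. A further 1681 (15.4%) were called with NAC alone, and 627 (5.73%) lay beyond the acute level, being above it with NAC and below it with vehicle. Of the 3707 lower genes, 1060 (9.69%) stood as in vehicle chronic cells, 730 (6.68%) were nearer with NAC, 884 (8.08%) were farther with NAC and 748 (6.84%) were called with NAC alone. The last 285 (2.61%) lay below the acute level with NAC and above it with vehicle. These counts describe the 3 groups and are not separate tests, since the comparisons share libraries. Apart from those of genes beyond the acute level, they were not repeated with rescaled libraries. Called with NAC alone means that vehicle chronic against vehicle acute missed the threshold, which does not show equal levels.

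TCR-induced genes mostly stood above acute levels in both chronic groups. Of 20 TCR-induced genes, 14 were higher in NAC chronic than in vehicle acute cells and 4 were lower, with a median log2 change of 1.56 beside 0.056 over all genes described. In vehicle chronic cells 16 were higher and 1 lower than in vehicle acute cells. These and all list counts below are to be read beside the shares over all genes described. Those were 40.4% higher and 33.9% lower for NAC chronic over vehicle acute, and 25.8% and 39.0% for vehicle chronic over vehicle acute. For NAC chronic over vehicle chronic they were 43.8% and 24.2%. Genes were ranked by their change without predicted genes, small RNAs and antigen receptor segments. Penk, which encodes the precursor of the opioid enkephalin peptides, was the most raised of the ranked genes: 659, 655 and 631 RPKM in NAC chronic, 1072, 1052 and 1086 RPKM in vehicle chronic and 0.673, 0.819 and 0.617 RPKM in vehicle acute libraries. It was called higher than in vehicle acute cells (log2 change 8.58, SE 0.077, limma adjusted p = 1.54e-24) and lower than in vehicle chronic cells (log2 change -0.72, SE 0.077, limma adjusted p = 8.82e-08), and the 3 groups did not overlap. Penk passed the filter through NAC chronic libraries alone, so its lack of overlap with vehicle acute libraries followed from the filter. Nrgn, which encodes the calmodulin-binding protein neurogranin, went the other way between the chronic groups: 399, 406 and 372 RPKM in NAC chronic, 122, 110.1 and 119 RPKM in vehicle chronic and 0.965, 2.68 and 2.02 RPKM in vehicle acute libraries. All 3 NAC chronic libraries stood above the highest vehicle chronic library (log2 change 7.13, SE 0.17, limma adjusted p = 5.88e-18 over vehicle acute and log2 change 1.73, SE 0.17, limma adjusted p = 3.64e-08 over vehicle chronic).

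The NR4A orphan nuclear receptors and EGR zinc finger factors, transcribed within hours of a TCR signal, were far above acute levels in both chronic groups. Nr4a1 was highest with NAC, with 114, 109 and 103 RPKM in NAC chronic, 39, 40.1 and 41.5 RPKM in vehicle chronic and 1.13, 1.15 and 1.17 RPKM in vehicle acute libraries. The change of Nr4a1 over vehicle acute was called (log2 change 5.67, SE 0.069, limma adjusted p = 1.85e-22). Nr4a3 had 75.3, 75.3 and 76 RPKM in NAC chronic, 34.4, 34.2 and 35.5 RPKM in vehicle chronic and 1.39, 1.13 and 1.38 RPKM in vehicle acute libraries. No library of one group overlapped with another for either gene. Egr2 had 56.6, 54.2 and 53 RPKM in NAC chronic, 50.5, 49.1 and 50.3 RPKM in vehicle chronic and 0.741, 0.895 and 0.999 RPKM in vehicle acute libraries, and the difference between the chronic groups was not called (log2 change 0.13, SE 0.11, limma adjusted p = 0.369). Nr4a2, with a mean of 64 ± 1.54 RPKM in NAC chronic, 62.4 ± 0.974 RPKM in vehicle chronic and 1.31 ± 0.093 RPKM in vehicle acute cells, was likewise raised in both. Other TCR-induced genes lay between the vehicle groups with NAC. Rgs16, an inhibitor of G protein signalling, had 149.8, 144 and 141 RPKM in NAC chronic, 252, 259 and 266 RPKM in vehicle chronic and 5.78, 6.29 and 5.6 RPKM in vehicle acute libraries, so that every NAC chronic library lay between the other groups. Tnfrsf9, which encodes the costimulatory receptor 4-1BB, averaged 361 ± 7.72 RPKM in NAC chronic, 905 ± 10.8 RPKM in vehicle chronic and 127 ± 21.1 RPKM in vehicle acute cells. Among the lower members, Dusp6, a phosphatase that shuts off ERK, averaged 35.3 ± 2.59 RPKM in NAC chronic, 47.6 ± 1.3 RPKM in vehicle chronic and 65.2 ± 2.95 RPKM in vehicle acute cells. Icos, a costimulatory receptor gene, averaged 40.2 ± 0.333 RPKM in NAC chronic, 67.4 ± 2.29 RPKM in vehicle chronic and 68.2 ± 1.22 RPKM in vehicle acute cells.

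Of 20 genes of the CD3 complex and proximal TCR signalling, 12 were higher and 6 lower in NAC chronic than in vehicle acute cells, with a median log2 change of 0.44. Among the lower members, Cd247, the gene of the CD3 ζ chain, averaged 39.7 ± 1.83 RPKM in NAC chronic, 37 ± 0.684 RPKM in vehicle chronic and 53 ± 1.41 RPKM in vehicle acute cells (log2 change -0.41, SE 0.057, limma adjusted p = 2.56e-06 over vehicle acute). The largest increases were in 2 scavenger receptor genes that tune TCR signal strength. Cd6 had 227, 215 and 218 RPKM in NAC chronic, 76.7, 72.8 and 77.7 RPKM in vehicle chronic and 39.2, 41.5 and 37.2 RPKM in vehicle acute libraries. The change of Cd6 over vehicle acute was called (log2 change 2.46, SE 0.047, limma adjusted p = 1.48e-19). Cd5 had 152, 149 and 146 RPKM in NAC chronic, 49.7, 51.7 and 50.0 RPKM in vehicle chronic and 40.9, 44.2 and 43.9 RPKM in vehicle acute libraries. The change of Cd5 over vehicle acute was called (log2 change 1.77, SE 0.061, limma adjusted p = 1.16e-15). In both, all NAC chronic libraries stood well above the other groups, which were closer to each other. Themis, a TCR signalling gene needed in thymic selection, was lower than in vehicle acute cells and above vehicle chronic cells, averaging 28.4 ± 1.15 RPKM in NAC chronic, 14 ± 0.157 RPKM in vehicle chronic and 71.1 ± 3.13 RPKM in vehicle acute cells.

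Inhibitory receptor transcripts were mostly above the acute level with NAC. Of 15 such genes 14 were measured, and 10 were higher and 2 lower in NAC chronic than in vehicle acute cells, with a median log2 change of 0.97 (vehicle chronic over vehicle acute had 9 higher, 1 lower and a median of 2.35). Lag3, which encodes a receptor for MHC class II, had 286, 288 and 268 RPKM in NAC chronic, 349.6, 358 and 352 RPKM in vehicle chronic and 8.72, 9.34 and 8.76 RPKM in vehicle acute libraries. That was 31.4-fold the vehicle acute mean (log2 change 4.83, SE 0.064, limma adjusted p = 6.19e-22) and below vehicle chronic cells by 0.33 on the log2 scale. Pdcd1, the gene of PD-1, had 127, 127 and 136 RPKM in NAC chronic, 207, 214 and 213 RPKM in vehicle chronic and 7.66, 8.0 and 8.88 RPKM in vehicle acute libraries. The change of Pdcd1 over vehicle acute was called (log2 change 3.83, SE 0.076, limma adjusted p = 2.09e-19). For both genes NAC chronic libraries lay below the vehicle chronic libraries and far above the vehicle acute libraries, with no overlap. Tigit averaged 195 ± 4.82 RPKM in NAC chronic, 222 ± 8.7 RPKM in vehicle chronic and 21.9 ± 3.66 RPKM in vehicle acute cells. Ctla4 averaged 148 ± 0.754 RPKM in NAC chronic, 169.6 ± 3.29 RPKM in vehicle chronic and 45.1 ± 3.53 RPKM in vehicle acute cells. Cd200, whose product signals to the inhibitory receptor CD200R, was highest with NAC, with 26.2, 23.4 and 24.3 RPKM in NAC chronic, 10.7, 11.6 and 12.2 RPKM in vehicle chronic and 0.278, 0.29 and 0.446 RPKM in vehicle acute libraries. Havcr2, the gene of TIM-3, stood close to the acute level with NAC: 29.2, 28.5 and 28.3 RPKM in NAC chronic, 199, 203 and 204 RPKM in vehicle chronic and 25.6, 23.9 and 26.1 RPKM in vehicle acute libraries. It was still called higher than in vehicle acute cells (log2 change 0.18, SE 0.046, limma adjusted p = 0.00177), although the vehicle chronic libraries lay above every other library (log2 change 2.96, SE 0.046, limma adjusted p = 3.79e-21 for vehicle chronic over vehicle acute). Vsir, the gene of the checkpoint protein VISTA, was 1 of the 2 lower members and averaged 34.7 ± 0.546 RPKM in NAC chronic, 51.8 ± 3.48 RPKM in vehicle chronic and 56.3 ± 0.582 RPKM in vehicle acute cells. Cd160, the other, averaged 29.8 ± 0.769 RPKM in NAC chronic, 37.1 ± 0.212 RPKM in vehicle chronic and 40.6 ± 2.25 RPKM in vehicle acute cells.

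Genes of effector and chronic-stimulation transcription factors had 13 of 20 members higher and 5 lower than in vehicle acute cells, with a median log2 change of 0.53. Tox, the factor associated with the exhausted fate, was high with NAC and low in both vehicle groups: 18.7, 19.3 and 19.2 RPKM in NAC chronic, 0.791, 0.56 and 0.999 RPKM in vehicle chronic and 1.04, 0.883 and 1.26 RPKM in vehicle acute libraries. It was called in NAC chronic against vehicle acute (log2 change 3.29, SE 0.14, limma adjusted p = 4.47e-14) and not in vehicle chronic against vehicle acute (log2 change -0.21, SE 0.14, limma adjusted p = 0.21). Ikzf2, the gene of the zinc finger factor Helios, averaged 45.7 ± 0.758 RPKM in NAC chronic, 35.2 ± 0.769 RPKM in vehicle chronic and 4.02 ± 0.735 RPKM in vehicle acute cells. Irf8 averaged 266 ± 4.53 RPKM in NAC chronic, 392 ± 4.82 RPKM in vehicle chronic and 30.5 ± 2.82 RPKM in vehicle acute cells. Eomes, a T-box factor of effector and memory cells, averaged 207 ± 2.66 RPKM in NAC chronic, 85 ± 0.657 RPKM in vehicle chronic and 91.5 ± 2.27 RPKM in vehicle acute cells. Id2, a dimerisation partner that blocks E proteins and favours effector differentiation, was lower with NAC: 177, 183 and 173 RPKM in NAC chronic, 703, 737 and 703 RPKM in vehicle chronic and 673, 667 and 632 RPKM in vehicle acute libraries. Its vehicle chronic and vehicle acute libraries lay close together and every NAC chronic library lay far below them (log2 change -1.88, SE 0.062, limma adjusted p = 7.05e-16 over vehicle acute). Batf3 was also lower, with means of 1.9 ± 0.332 RPKM in NAC chronic, 8.11 ± 0.854 RPKM in vehicle chronic and 13.6 ± 1.38 RPKM in vehicle acute cells.

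Stem-like and memory genes were split, with 9 of 20 members higher and 9 lower than in vehicle acute cells and a median log2 change of -0.020. Over all genes described 40.4% were higher and 33.9% lower. Vehicle chronic cells had 5 higher and 12 lower members than vehicle acute cells, and NAC chronic cells had 16 higher and 2 lower members than vehicle chronic cells. Tcf7 stayed below the acute level with NAC but far above the vehicle chronic level: 117, 117 and 113 RPKM in NAC chronic, 3.23, 3.37 and 3.9 RPKM in vehicle chronic and 158, 176 and 192 RPKM in vehicle acute libraries. The difference from vehicle acute cells was called (log2 change -0.59, SE 0.067, limma adjusted p = 1.54e-07) and its libraries did not overlap. Id3, an E protein inhibitor of naive and memory cells, kept a larger gap, with 11.3, 11.7 and 14.8 RPKM in NAC chronic, 0.592, 1.44 and 0.56 RPKM in vehicle chronic and 38.8, 42.6 and 37 RPKM in vehicle acute libraries. The change of Id3 over vehicle acute was called (log2 change -1.58, SE 0.13, limma adjusted p = 1.62e-09). S1pr1, the receptor with which T cells leave lymph nodes, averaged 15.7 ± 0.681 RPKM in NAC chronic, 4.36 ± 0.518 RPKM in vehicle chronic and 52.8 ± 4.59 RPKM in vehicle acute cells. Klf2, the factor that activates S1pr1, averaged 12.8 ± 0.354 RPKM in NAC chronic, 3.95 ± 0.292 RPKM in vehicle chronic and 32.4 ± 1.92 RPKM in vehicle acute cells. Both lay between the other groups with NAC. Slamf6, a receptor used to mark stem-like exhausted cells, averaged 11.9 ± 0.272 RPKM in NAC chronic, 0.433 ± 0.0752 RPKM in vehicle chronic and 17.3 ± 1.79 RPKM in vehicle acute cells.

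Other genes of this list stood above the acute level with NAC. Ccr7, the lymph node homing receptor, had 413, 417 and 419 RPKM in NAC chronic, 30.7, 29.7 and 28.3 RPKM in vehicle chronic and 57.1, 58.3 and 55.1 RPKM in vehicle acute libraries. The change of Ccr7 over vehicle acute was called (log2 change 2.85, SE 0.084, limma adjusted p = 1.04e-16). Vehicle chronic cells were below vehicle acute cells for this gene (log2 change -0.92, SE 0.084, limma adjusted p = 8.04e-09), so the 3 groups did not overlap and NAC chronic cells lay on the far side of the acute level. Myb, a factor of stem-like T cells, had 122, 122 and 131 RPKM in NAC chronic, 14.9, 14.4 and 15.6 RPKM in vehicle chronic and 15.5, 15.1 and 17.2 RPKM in vehicle acute libraries. The change of Myb over vehicle acute was called (log2 change 2.90, SE 0.066, limma adjusted p = 1.81e-18). The difference between the vehicle groups was not (log2 change -0.086, SE 0.066, limma adjusted p = 0.28 for vehicle chronic over vehicle acute). Bach2, a repressor that restrains effector genes, averaged 20.8 ± 0.186 RPKM in NAC chronic, 7.98 ± 0.26 RPKM in vehicle chronic and 4.53 ± 0.191 RPKM in vehicle acute cells. Bcl6, a repressor of follicular helper and memory precursor cells, averaged 29.7 ± 1.48 RPKM in NAC chronic, 12.3 ± 0.678 RPKM in vehicle chronic and 3.15 ± 0.309 RPKM in vehicle acute cells. For both of these all NAC chronic libraries were the highest.

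Of 17 cytotoxic granule genes, 14 were lower and 3 higher in NAC chronic than in vehicle chronic cells. Of the same 17, 11 were higher and 6 lower in NAC chronic than in vehicle acute cells (median log2 change 0.74), and 14 were higher and 3 lower in vehicle chronic than in vehicle acute cells (median 2.36). The summed level of the list went the other way from its count against vehicle acute cells, with 7733 to 7854 RPKM in NAC chronic, 46345 to 47348 RPKM in vehicle chronic and 9715 to 10648 RPKM in vehicle acute libraries. Gzmb and Gzma, the granzyme genes best known from killer T cells, were below the acute level with NAC and above it in vehicle chronic cells. Serpinb9b, of the serpin clade that inhibits granzymes, had 347, 353 and 346 RPKM in NAC chronic, 814, 846 and 840.4 RPKM in vehicle chronic and 2.34, 2.4 and 1.84 RPKM in vehicle acute libraries. The change of Serpinb9b over vehicle acute was called (log2 change 6.78, SE 0.091, limma adjusted p = 6.19e-22). Gzmf had 134, 133 and 117 RPKM in NAC chronic, 1286, 1313 and 1255 RPKM in vehicle chronic and 2.74, 2.02 and 1.6 RPKM in vehicle acute libraries, and the neighbouring Gzmc averaged 539 ± 19.5 RPKM in NAC chronic, 4663 ± 129.6 RPKM in vehicle chronic and 42.9 ± 1.15 RPKM in vehicle acute cells. The perforin gene Prf1 averaged 171 ± 4.44 RPKM in NAC chronic, 1391 ± 19 RPKM in vehicle chronic and 69 ± 9.63 RPKM in vehicle acute cells. These genes were intermediate with NAC, with no overlap among the groups. The granzyme genes C to G resemble each other closely in sequence, and how shared reads were counted is not known here. The split among them is uncertain. Gzmk and Gzmm, granzymes outside that cluster, were lower in both chronic groups than in vehicle acute cells. Gzmk had 0.587, 0.175 and 0.41 RPKM in NAC chronic, 1.27, 1.3 and 1.42 RPKM in vehicle chronic and 38.8, 40.1 and 42.5 RPKM in vehicle acute libraries (log2 change -4.91, SE 0.23, limma adjusted p = 1.41e-13 over vehicle acute), and Gzmm averaged 1.42 ± 0.242 RPKM in NAC chronic, 0.599 ± 0.168 RPKM in vehicle chronic and 9.74 ± 1.1 RPKM in vehicle acute cells. Gzmm was 1 of the 3 members higher with NAC than in vehicle chronic cells (log2 change 0.60, SE 0.13, limma adjusted p = 0.000634).

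Among 24 cytokine and chemokine genes, 20 were measured above the filter. Of these, 9 were higher and 7 lower in NAC chronic than in vehicle acute cells (median log2 change 0.18). That is close to the shares over all genes described, 40.4% higher and 33.9% lower. In vehicle chronic over vehicle acute cells 14 were higher and 4 lower (median 2.60). Ifng, the gene of interferon-γ, had 119, 113 and 120.3 RPKM in NAC chronic, 432, 439 and 421 RPKM in vehicle chronic and 5.2, 4.67 and 4.13 RPKM in vehicle acute libraries. The change of Ifng over vehicle acute was called (log2 change 4.39, SE 0.079, limma adjusted p = 5.67e-20). The chemokine genes Ccl3 and Xcl1 were the most raised. Ccl3 had 84.6, 77.9 and 76.5 RPKM in NAC chronic, 963, 942 and 988 RPKM in vehicle chronic and 2.11, 1.64 and 1.99 RPKM in vehicle acute libraries. Xcl1 had 372, 363 and 377 RPKM in NAC chronic, 567, 560.3 and 572 RPKM in vehicle chronic and 12.7, 13.3 and 15.5 RPKM in vehicle acute libraries. For all 3 genes NAC chronic libraries lay between the other groups without overlap. Lta, which encodes lymphotoxin-α, was low in both chronic groups, with 3.55, 5.52 and 5.07 RPKM in NAC chronic, 5.39, 6.02 and 5.15 RPKM in vehicle chronic and 55, 48.9 and 38.2 RPKM in vehicle acute libraries. Tnf averaged 10.8 ± 0.22 RPKM in NAC chronic, 22.7 ± 0.873 RPKM in vehicle chronic and 28.5 ± 2.91 RPKM in vehicle acute cells. Il24, of the interleukin 10 family, was low with NAC alone, with 0.416, 0.932 and 0.407 RPKM in NAC chronic, 17.1, 20.3 and 21.9 RPKM in vehicle chronic and 17.3, 14.5 and 10.0 RPKM in vehicle acute libraries.

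Homing receptors and integrins had 6 of 18 measured members higher and 10 lower than in vehicle acute cells, with a median log2 change of -0.27. The chemokine receptor genes Cxcr3 and Ccr2 were among the 10 lowest changes of the ranked genes. Cxcr3, the receptor for interferon-induced chemokines, had 5.74, 5.39 and 5.61 RPKM in NAC chronic, 2.34, 1.45 and 1.44 RPKM in vehicle chronic and 103, 111 and 115 RPKM in vehicle acute libraries. The change of Cxcr3 over vehicle acute was called (log2 change -4.07, SE 0.095, limma adjusted p = 2.88e-18). Ccr2, a receptor for monocyte-attracting chemokines, had 18.4, 16.5 and 20.1 RPKM in NAC chronic, 66.4, 63.5 and 64.2 RPKM in vehicle chronic and 319.5, 319.6 and 353 RPKM in vehicle acute libraries. The change of Ccr2 over vehicle acute was called (log2 change -4.10, SE 0.062, limma adjusted p = 5.05e-21). Every NAC chronic library was below every vehicle acute library for both, while against vehicle chronic cells Cxcr3 was higher with NAC and Ccr2 lower. Itgb7, the β7 integrin chain used in gut homing, averaged 31.3 ± 2.7 RPKM in NAC chronic, 11.6 ± 0.653 RPKM in vehicle chronic and 146 ± 2.59 RPKM in vehicle acute cells. Ccr8, a receptor of skin-homing T cells, was higher, averaging 43.8 ± 1.51 RPKM in NAC chronic, 25.9 ± 1.55 RPKM in vehicle chronic and 2.32 ± 0.156 RPKM in vehicle acute cells.

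Over the ranked genes, the lowest change was that of Igfbp4, which encodes a binding protein of insulin-like growth factors: 0.739, 0.806 and 0.974 RPKM in NAC chronic, 0.941, 0.773 and 0.546 RPKM in vehicle chronic and 93.1, 90.0 and 81.7 RPKM in vehicle acute libraries. Both chronic groups were low, and their libraries overlapped (log2 change -5.60, SE 0.088, limma adjusted p = 6.67e-21 for NAC chronic over vehicle acute and log2 change 0.074, SE 0.088, limma adjusted p = 0.505 for NAC chronic over vehicle chronic). Igfbp4 passed the filter through vehicle acute libraries alone, so a lower level in NAC chronic libraries followed from the filter. Fgl2, an immunoregulatory fibrinogen-like protein gene, had 5.99, 6.46 and 6.77 RPKM in NAC chronic, 41.9, 41.5 and 40.5 RPKM in vehicle chronic and 139, 133 and 148 RPKM in vehicle acute libraries, so that vehicle chronic cells were intermediate. Cdkn2a, the locus of the cell cycle inhibitor INK4A and of ARF, had 2.57, 2.69 and 2.91 RPKM in NAC chronic, 17.2, 15.3 and 15.1 RPKM in vehicle chronic and 65.6, 65.1 and 63.5 RPKM in vehicle acute libraries, in the same order. The metalloprotease gene Adam19 averaged 0.826 ± 0.097 RPKM in NAC chronic, 2.35 ± 0.316 RPKM in vehicle chronic and 36.4 ± 2.03 RPKM in vehicle acute cells. Among the 10 highest changes was also Gng11, a G protein γ subunit gene, which averaged 70.3 ± 2.23 RPKM in NAC chronic, 8.99 ± 0.27 RPKM in vehicle chronic and 0.355 ± 0.245 RPKM in vehicle acute cells. Another was that of Slc17a6, a vesicular glutamate transporter gene, which averaged 36.8 ± 1.99 RPKM in NAC chronic, 75.1 ± 0.282 RPKM in vehicle chronic and 0.0587 ± 0.031 RPKM in vehicle acute cells.

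**Figure D2:**
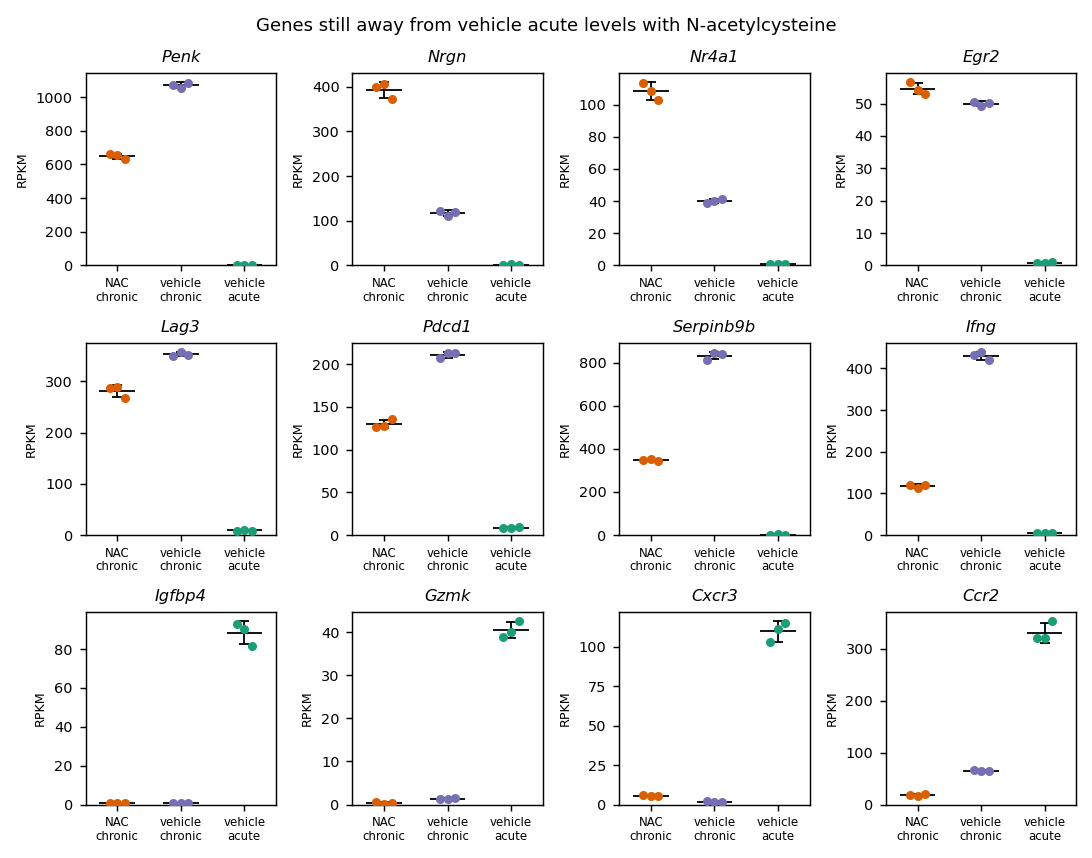
RPKM of 12 genes that were still away from the vehicle acute level, with 1 panel per gene, the groups on the x axis and RPKM on the y axis. Points are libraries, and the line and bars are the mean and SD of 3 libraries. Penk, Lag3, Pdcd1, Serpinb9b and Ifng lie between the other groups with NAC, Nrgn and Nr4a1 are highest with NAC, and Igfbp4, Gzmk, Cxcr3 and Ccr2 are low in both chronic groups.

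Proliferation genes were lower in NAC chronic than in vehicle acute cells nearly throughout. All 28 DNA replication genes were lower, with a median log2 change of -1.01, and 16 of them by at least 2-fold. In vehicle chronic cells all 28 were lower as well, with a median of -0.95. With every library rescaled to the same median, the medians were -1.07 with NAC and -0.87 with vehicle. Mcm5, a subunit of the replicative helicase, had 46.6, 48.4 and 46.8 RPKM in NAC chronic, 54, 54 and 54.8 RPKM in vehicle chronic and 134, 134 and 130.1 RPKM in vehicle acute libraries. The change of Mcm5 over vehicle acute was called (log2 change -1.47, SE 0.046, limma adjusted p = 2.71e-16). The clamp gene Pcna averaged 108 ± 2.06 RPKM in NAC chronic, 106 ± 4.23 RPKM in vehicle chronic and 207 ± 5.73 RPKM in vehicle acute cells, with no called difference between the chronic groups. Of 29 genes of the cell cycle and mitosis, 26 were lower and 1 higher, with a median log2 change of -0.59. Here vehicle chronic cells were lower still (28 of 29 lower, median -1.05), and 22 of 29 were higher in NAC chronic than in vehicle chronic cells. Mki67, the gene of the proliferation antigen Ki-67, had 113, 112 and 110.0 RPKM in NAC chronic, 77.5, 76.6 and 78.5 RPKM in vehicle chronic and 166, 161 and 179.9 RPKM in vehicle acute libraries, with the NAC chronic libraries between the other groups. Birc5, the survivin gene used in mitosis, averaged 31.4 ± 1.29 RPKM in NAC chronic, 29 ± 0.737 RPKM in vehicle chronic and 75.4 ± 0.922 RPKM in vehicle acute cells. The 1 higher member was Cdkn1b, the cell cycle inhibitor p27, with 100.2, 94.8 and 105 RPKM in NAC chronic, 47.5, 46.9 and 44.6 RPKM in vehicle chronic and 72.3, 75 and 81.5 RPKM in vehicle acute libraries.

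The lowest change among ranked genes called with NAC alone was that of Mt2, one of the metallothioneins. These are small cysteine-rich proteins that bind zinc and copper and whose genes are switched on by the zinc-sensing factor MTF-1 through metal response elements. Mt2 had 4.42, 3.62 and 2.57 RPKM in NAC chronic, 220.2, 209.8 and 199 RPKM in vehicle chronic and 213, 208 and 184 RPKM in vehicle acute libraries. The change of Mt2 over vehicle acute was called (log2 change -5.50, SE 0.11, limma adjusted p = 2.87e-19). Mt1 had 17.1, 15.7 and 16.4 RPKM in NAC chronic, 336, 328 and 304 RPKM in vehicle chronic and 352, 343 and 296 RPKM in vehicle acute libraries. The change of Mt1 over vehicle acute was called (log2 change -4.25, SE 0.095, limma adjusted p = 1.71e-18). In both genes the vehicle chronic and vehicle acute libraries overlapped, and every NAC chronic library lay far below them. The brain-enriched Mt3 averaged 4.64 ± 0.419 RPKM in NAC chronic, 18.9 ± 2.86 RPKM in vehicle chronic and 12.5 ± 3.09 RPKM in vehicle acute cells. Slc30a1, the plasma membrane zinc exporter and another known MTF-1 target, moved less, with 2.31, 1.91 and 2.27 RPKM in NAC chronic, 3.15, 3.04 and 2.94 RPKM in vehicle chronic and 3.31, 3.27 and 3.72 RPKM in vehicle acute libraries. The change of Slc30a1 over vehicle acute was called (log2 change -0.49, SE 0.091, limma adjusted p = 8.82e-05). All 20 listed metallothionein and zinc genes passed the filter, 6 of them higher and 11 lower, with a median log2 change of -0.21. Slc39a8, a zinc importer gene, averaged 2.55 ± 0.129 RPKM in NAC chronic, 1.87 ± 0.246 RPKM in vehicle chronic and 7.76 ± 0.678 RPKM in vehicle acute cells. Slc30a2, a vesicular zinc transporter gene, had 2.79, 2.22 and 2.53 RPKM in NAC chronic, 0.265, 0.12 and 0.107 RPKM in vehicle chronic and 0.0538, 0.0616 and 0.0701 RPKM in vehicle acute libraries.

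The promoters of Mt1, Mt2 and Slc30a1 are shown because these known zinc-responsive genes were lower together with NAC. The sequences are RefSeq's for build GRCm38.p6, from 250 bases before to 50 bases after the start site, 5′ to 3′ on the plus strand, with Mt1 at chr8:94178839-94179138, Mt2 at chr8:94172368-94172667 and Slc30a1 at chr1:191906531-191906830. Capitals mark non-overlapping matches to the metal response element core, searched as TGCACNC and TGCGCNC on both strands.
Mt1: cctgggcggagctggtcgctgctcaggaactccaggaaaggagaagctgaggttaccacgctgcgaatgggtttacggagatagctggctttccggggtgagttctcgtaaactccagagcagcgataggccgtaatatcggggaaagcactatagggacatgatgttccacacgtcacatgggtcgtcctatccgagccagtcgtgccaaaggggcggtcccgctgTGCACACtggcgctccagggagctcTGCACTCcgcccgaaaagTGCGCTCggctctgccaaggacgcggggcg
Mt2: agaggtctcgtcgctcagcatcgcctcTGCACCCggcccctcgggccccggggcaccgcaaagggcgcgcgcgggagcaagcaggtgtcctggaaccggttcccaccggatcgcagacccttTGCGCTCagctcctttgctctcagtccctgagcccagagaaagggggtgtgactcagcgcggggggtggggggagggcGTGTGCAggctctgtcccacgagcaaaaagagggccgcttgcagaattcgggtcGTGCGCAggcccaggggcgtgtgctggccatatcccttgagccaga
Slc30a1: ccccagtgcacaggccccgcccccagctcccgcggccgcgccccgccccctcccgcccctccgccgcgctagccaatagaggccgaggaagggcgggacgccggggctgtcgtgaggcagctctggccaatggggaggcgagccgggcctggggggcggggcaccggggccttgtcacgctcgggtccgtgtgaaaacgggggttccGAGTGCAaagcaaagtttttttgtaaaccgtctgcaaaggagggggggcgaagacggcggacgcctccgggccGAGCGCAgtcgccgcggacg
Mt1 held 3 matches, Mt2 held 4, Slc30a1 held 2 and Mt3 held 1. Of 32851 promoters of the same length, 25.7% held at least 1 match, 7.11% at least 2, 1.97% at least 3 and 0.517% at least 4. A match is a description of the letters and not a measured site, and no binding was measured.

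Glutathione and thioredoxin genes were mostly below acute levels with NAC. Of 23 genes of cysteine supply and glutathione, 19 passed the filter, and 3 were higher and 14 lower in NAC chronic than in vehicle acute cells (median log2 change -0.73). In vehicle chronic over vehicle acute cells 7 were higher and 11 lower (median -0.24), or 8 and 9 with every library rescaled to the same median, beside 39.0% of all described genes called lower. Gsr, the glutathione reductase gene, had 15.1, 14.8 and 14.4 RPKM in NAC chronic, 25.2, 28.3 and 28.5 RPKM in vehicle chronic and 47, 46.4 and 40.5 RPKM in vehicle acute libraries, so that the 3 groups were in steps without overlap. Gclm, the modifier subunit of the enzyme that makes glutathione's precursor, averaged 11.5 ± 1.09 RPKM in NAC chronic, 9.75 ± 0.88 RPKM in vehicle chronic and 29.3 ± 0.555 RPKM in vehicle acute cells. Slc7a5, the large neutral amino acid transporter gene, had 26.3, 26.9 and 23.9 RPKM in NAC chronic, 139.6, 133 and 139 RPKM in vehicle chronic and 125, 116 and 112 RPKM in vehicle acute libraries, and only the NAC chronic libraries were low. Sqrdl, a mitochondrial enzyme gene of sulfide oxidation, was higher, with 3.89, 4.92 and 4.36 RPKM in NAC chronic, 1.34, 1.17 and 1.3 RPKM in vehicle chronic and 0.368, 0.454 and 0.415 RPKM in vehicle acute libraries.

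Of 33 thioredoxin, peroxiredoxin and NRF2 target genes, 31 passed the filter, and 8 were higher and 22 lower than in vehicle acute cells (median log2 change -0.45, and -0.43 for vehicle chronic over vehicle acute). With every library rescaled to the same median, these medians were -0.51 and -0.35. Prdx1, which encodes the peroxide-reducing enzyme peroxiredoxin 1, had 55.1, 51.9 and 53.7 RPKM in NAC chronic, 72.8, 75.8 and 70.7 RPKM in vehicle chronic and 187, 189 and 186 RPKM in vehicle acute libraries. The change of Prdx1 over vehicle acute was called (log2 change -1.78, SE 0.065, limma adjusted p = 3.09e-15). Txnrd1, the thioredoxin reductase gene, had 24.3, 26.9 and 25.1 RPKM in NAC chronic, 42.3, 41.1 and 40.9 RPKM in vehicle chronic and 67.9, 66.9 and 64.5 RPKM in vehicle acute libraries. Hmox1, the heme oxygenase gene, was low with NAC alone, with 3.24, 3.3 and 3.17 RPKM in NAC chronic, 11.5, 14.3 and 11.7 RPKM in vehicle chronic and 16.6, 14.2 and 11.8 RPKM in vehicle acute libraries. Each of these genes had its lowest 3 libraries among NAC chronic cells. Srxn1, which repairs oxidised peroxiredoxins, was beyond the acute level, averaging 5.0 ± 0.194 RPKM in NAC chronic, 24 ± 0.273 RPKM in vehicle chronic and 10.4 ± 0.328 RPKM in vehicle acute cells. High with NAC alone was Gsta4, a glutathione transferase gene for lipid peroxidation products, which had 18, 19.4 and 17.3 RPKM in NAC chronic, 0.262, 0.179 and 0.434 RPKM in vehicle chronic and 0.186, 0.142 and 0.121 RPKM in vehicle acute libraries. The change of Gsta4 over vehicle acute was called (log2 change 4.06, SE 0.30, limma adjusted p = 3.17e-10). Txnip, an inhibitor of thioredoxin and of glucose uptake, averaged 248 ± 3.57 RPKM in NAC chronic, 120.0 ± 2.43 RPKM in vehicle chronic and 125 ± 5.3 RPKM in vehicle acute cells.

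Glycolysis genes were mostly lower with NAC, and 13 of 22 stood farther from the acute level with NAC than with vehicle. Over all genes described, 8.44% were higher and farther with NAC and 8.08% lower and farther. The count of 13 was not repeated with rescaled libraries. Of the 22 measured genes of glucose transport and glycolysis, 7 were higher and 15 lower than in vehicle acute cells, 9 of those lower by at least 2-fold (median log2 change -0.74, against -0.21 for vehicle chronic over vehicle acute). Slc2a1, the glucose transporter GLUT1, had 18.5, 18.4 and 16.7 RPKM in NAC chronic, 53, 50.7 and 53 RPKM in vehicle chronic and 76.6, 71 and 59.7 RPKM in vehicle acute libraries. The change of Slc2a1 over vehicle acute was called (log2 change -1.89, SE 0.068, limma adjusted p = 2.42e-15). Hk2, the inducible hexokinase gene, had 3.2, 3.25 and 3.77 RPKM in NAC chronic, 18.5, 18.9 and 19.4 RPKM in vehicle chronic and 19.4, 18.1 and 16 RPKM in vehicle acute libraries, with the vehicle groups overlapping. Pkm, the pyruvate kinase gene, had 189, 190.3 and 185 RPKM in NAC chronic, 420.4, 421 and 426 RPKM in vehicle chronic and 735, 705 and 609 RPKM in vehicle acute libraries. The third vehicle acute library was the lowest of its group for all 3 genes, and all NAC chronic libraries lay below it. Ldha, the lactate dehydrogenase A gene, averaged 337 ± 9.82 RPKM in NAC chronic, 636 ± 8.55 RPKM in vehicle chronic and 1023 ± 97.7 RPKM in vehicle acute cells. Eno3, the enolase of muscle, had 73.6, 75.4 and 74.7 RPKM in NAC chronic, 12.2, 13.4 and 12.9 RPKM in vehicle chronic and 11.8, 11.2 and 10.1 RPKM in vehicle acute libraries. Ldhb averaged 6.52 ± 0.30 RPKM in NAC chronic, 1.89 ± 0.0595 RPKM in vehicle chronic and 1.73 ± 0.345 RPKM in vehicle acute cells, so these isoforms were highest with NAC. Eno3 was not called in vehicle chronic against vehicle acute (log2 change 0.20, limma adjusted p = 0.0702) but passed with rescaled libraries (0.28, limma adjusted p = 0.0125). Slc2a3, the high-affinity glucose transporter GLUT3, was higher in both chronic groups, averaging 90.3 ± 2.96 RPKM in NAC chronic, 109 ± 3.04 RPKM in vehicle chronic and 39.3 ± 4.76 RPKM in vehicle acute cells.

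Of 22 hypoxia target genes that passed the filter, 3 were higher and 14 lower than in vehicle acute cells (median log2 change -0.38). Bnip3, a mitophagy receptor gene, had 8.51, 8.29 and 7.69 RPKM in NAC chronic, 25.4, 25.5 and 24.7 RPKM in vehicle chronic and 86.1, 75 and 53.7 RPKM in vehicle acute libraries. The change of Bnip3 over vehicle acute was called (log2 change -2.96, SE 0.10, limma adjusted p = 1.67e-15). Its vehicle acute libraries were the most spread, and still did not overlap with either chronic group.

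**Figure D3:**
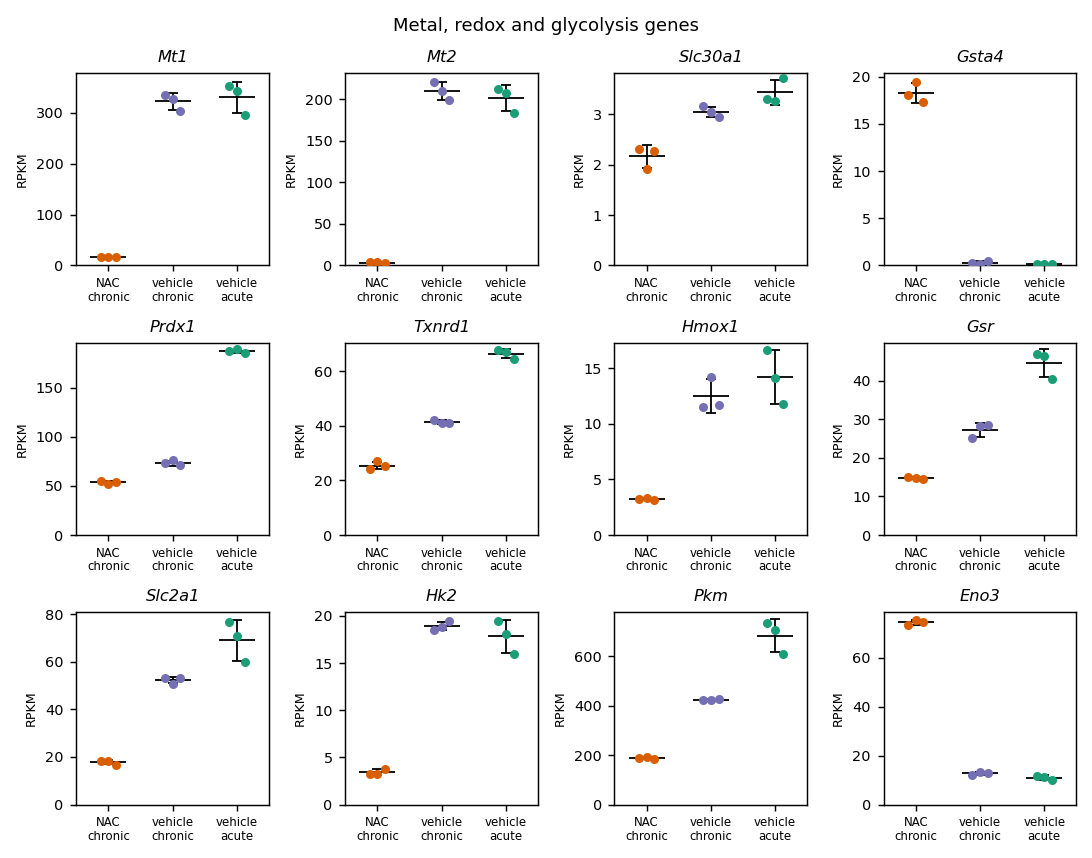
RPKM of 12 metal, redox and glycolysis genes, with 1 panel per gene, the groups on the x axis and RPKM on the y axis. Points are libraries, and the line and bars are the mean and SD of 3 libraries. Mt1, Mt2, Hmox1 and Hk2 are low with NAC alone, Prdx1, Txnrd1, Gsr and Pkm are lowest with NAC, intermediate in vehicle chronic and highest in vehicle acute cells, and Gsta4 and Eno3 are high with NAC alone.

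Respiratory chain genes were mostly below the acute level with NAC. Of 70 nuclear genes of the respiratory chain and ATP synthase, 47 were lower and 4 higher in NAC chronic than in vehicle acute cells, none by 2-fold (median log2 change -0.34). Vehicle chronic cells had 49 lower and 3 higher members (median -0.32). With every library rescaled to the same median, 52 were lower and 3 higher with NAC (median -0.40). With vehicle 38 were then lower and 3 higher (median -0.24), so how alike the chronic groups looked depended on the scaling. Between the chronic groups, 16 of the 70 were lower and 5 higher with NAC, or 26 and 2 with every library rescaled to the same median. Atp5g1, a subunit c gene of ATP synthase, had 10.0, 10.7 and 9.87 RPKM in NAC chronic, 16, 14.8 and 16.2 RPKM in vehicle chronic and 20.4, 17.6 and 19.3 RPKM in vehicle acute libraries. Ndufa6, a complex I subunit gene, was higher with NAC, with 216, 206 and 217 RPKM in NAC chronic, 137, 138 and 135 RPKM in vehicle chronic and 124, 133 and 128 RPKM in vehicle acute libraries. Among 29 genes of the tricarboxylic acid cycle and pyruvate entry, 18 were lower and 3 higher (median log2 change -0.24). Pdk1 and Pdk2 both encode kinases that inhibit pyruvate dehydrogenase, and they were called in opposite directions. Pdk1 averaged 17.3 ± 0.72 RPKM in NAC chronic, 12.1 ± 0.385 RPKM in vehicle chronic and 42.5 ± 3.42 RPKM in vehicle acute cells. Pdk2 averaged 8.22 ± 0.51 RPKM in NAC chronic, 1.49 ± 0.155 RPKM in vehicle chronic and 3.08 ± 0.161 RPKM in vehicle acute cells. Of 26 measured genes of mitochondrial biogenesis, dynamics and mitophagy, 12 were lower, 5 higher and 9 not called (median log2 change -0.13), beside 33.9% of all described genes called lower. Park7, the redox-sensitive DJ-1 gene, had 81.8, 87.4 and 85.9 RPKM in NAC chronic, 79.4, 77 and 81.3 RPKM in vehicle chronic and 309, 304 and 278 RPKM in vehicle acute libraries, so that both chronic groups were low. Pink1, the kinase that marks damaged mitochondria, was beyond the acute level, with 49.6, 52.3 and 50.2 RPKM in NAC chronic, 18.5, 18.4 and 18.5 RPKM in vehicle chronic and 28.1, 28.8 and 30.7 RPKM in vehicle acute libraries.

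Amino acid and protein folding stress genes were mostly below the acute level with NAC. Of 23 ATF4 and amino acid response genes that passed the filter, 18 were lower and 3 higher than in vehicle acute cells (median log2 change -0.48), and 20 of 23 were lower than in vehicle chronic cells. Asns, the asparagine synthetase gene, averaged 34.7 ± 1.22 RPKM in NAC chronic, 102 ± 2.47 RPKM in vehicle chronic and 79.7 ± 6.63 RPKM in vehicle acute cells. Shmt2, a mitochondrial enzyme gene of serine metabolism, averaged 49.6 ± 1.23 RPKM in NAC chronic, 112 ± 4.18 RPKM in vehicle chronic and 153 ± 8.92 RPKM in vehicle acute cells. Of the few higher members, Ddit3, which encodes CHOP, averaged 40.6 ± 1.95 RPKM in NAC chronic, 48.6 ± 2.32 RPKM in vehicle chronic and 25.9 ± 1.3 RPKM in vehicle acute cells. Of 20 endoplasmic reticulum chaperone and unfolded protein response genes, 15 were lower and 4 higher (median log2 change -0.33), whereas vehicle chronic cells had 13 higher and 4 lower than vehicle acute cells (median 0.27). Calr, the calreticulin chaperone gene, had 237, 234 and 243 RPKM in NAC chronic, 603, 604 and 604 RPKM in vehicle chronic and 493, 465 and 443 RPKM in vehicle acute libraries. Hspa5, the gene of the chaperone BiP, averaged 226 ± 1.44 RPKM in NAC chronic, 469 ± 3.42 RPKM in vehicle chronic and 304 ± 23.7 RPKM in vehicle acute cells. For both genes the vehicle chronic libraries lay above the acute level and the NAC chronic libraries below it.

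The listed heat shock genes did not move as 1 group: of 13 that passed the filter, 5 were higher and 7 lower than in vehicle acute cells (median log2 change -0.30). The lower members included Hspd1, which encodes a mitochondrial chaperonin and not a cytosolic one. The inducible Hsp70 genes Hspa1a and Hspa1b were higher, with 18.8, 18.8 and 18.8 RPKM in NAC chronic, 4.22, 4.44 and 4.48 RPKM in vehicle chronic and 0.211, 0.145 and 0.0827 RPKM in vehicle acute libraries for Hspa1b. They are near-identical copies, so the values of either gene may hold reads of both. Hsp90aa1, the inducible Hsp90 gene, was lower, with 30.0, 33.4 and 30.9 RPKM in NAC chronic, 46.6, 45.8 and 45.1 RPKM in vehicle chronic and 89.9, 84.8 and 81.2 RPKM in vehicle acute libraries.

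Of 34 interferon-stimulated genes 31 passed the filter. Of these, 15 were nearer to the acute level with NAC than with vehicle, beside 4.07% (higher) and 6.68% (lower) of all genes described. The count of 15 was not repeated with rescaled libraries. In all, 7 were higher and 20 lower in NAC chronic than in vehicle acute cells (median log2 change -0.40). In vehicle chronic cells 26 were lower and the other 5 not called (median -1.05), beside 39.0% of all genes described called lower. Of the 31, 26 were higher in NAC chronic than in vehicle chronic cells, beside 43.8% of all genes described. Gbp2, a guanylate-binding protein gene, had 24.7, 26.9 and 26.3 RPKM in NAC chronic, 16.4, 16.2 and 15.8 RPKM in vehicle chronic and 83.1, 77.3 and 82.5 RPKM in vehicle acute libraries. Ifit3 averaged 0.824 ± 0.101 RPKM in NAC chronic, 0.277 ± 0.0845 RPKM in vehicle chronic and 5.52 ± 0.58 RPKM in vehicle acute cells. Gbp2 belongs to a family of similar copies, and its value may share reads with them. Iigp1, an immunity-related GTPase gene, had 31.5, 32.8 and 34.1 RPKM in NAC chronic, 1.02, 1.39 and 1.35 RPKM in vehicle chronic and 34.4, 28.6 and 31.9 RPKM in vehicle acute libraries, and NAC chronic and vehicle acute libraries overlapped (log2 change 0.052, SE 0.073, limma adjusted p = 0.566). That this test missed the threshold does not show equal levels.

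Of 22 cytokine receptor genes that passed the filter, 13 were higher and 6 lower than in vehicle acute cells (median log2 change 0.21). The shares over all genes described were 40.4% higher and 33.9% lower. Il10ra, the interleukin 10 receptor chain, had 101, 101 and 109.6 RPKM in NAC chronic, 26, 26.2 and 26.2 RPKM in vehicle chronic and 22.8, 21.8 and 23 RPKM in vehicle acute libraries. The change of Il10ra over vehicle acute was called (log2 change 2.16, SE 0.042, limma adjusted p = 1.83e-19). Il7r, the receptor chain for interleukin 7 on memory cells, had 124, 124 and 129 RPKM in NAC chronic, 151, 154 and 151 RPKM in vehicle chronic and 70.4, 76.5 and 89.6 RPKM in vehicle acute libraries, with NAC chronic libraries between the other groups. Il12rb1, a receptor chain for interleukins 12 and 23, had 25.2, 26.4 and 28.7 RPKM in NAC chronic, 95.9, 97.5 and 98.3 RPKM in vehicle chronic and 84.6, 84.1 and 84 RPKM in vehicle acute libraries, and only the NAC chronic libraries were low.

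**Figure D4:**
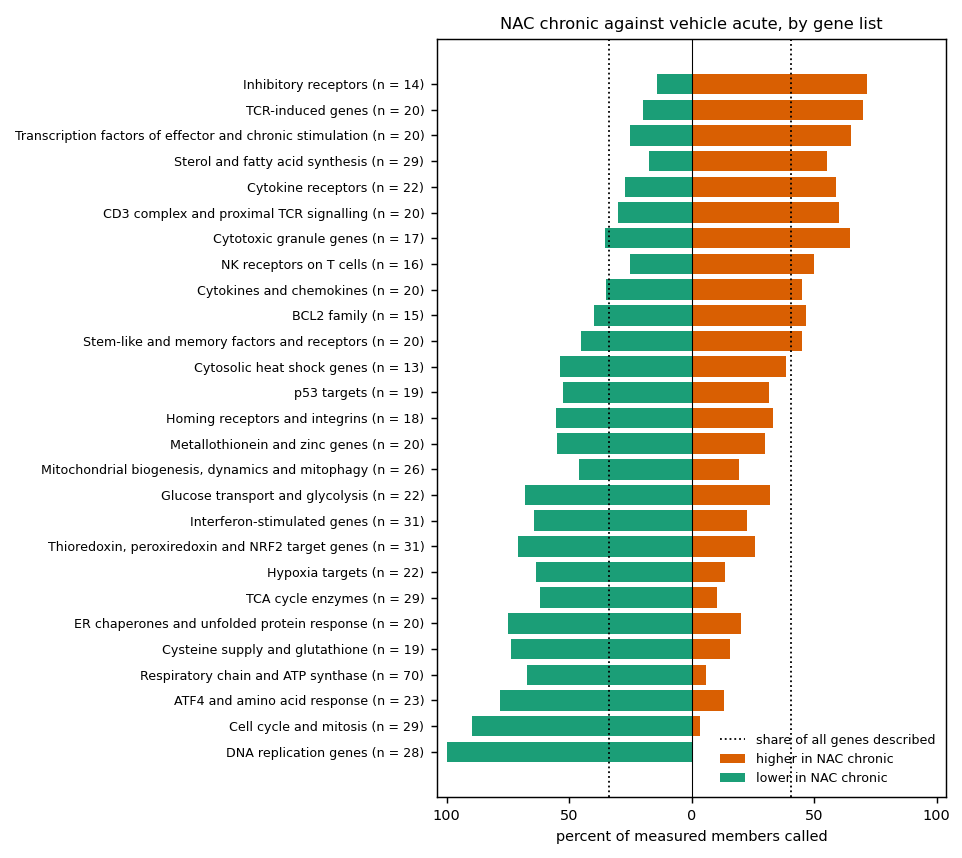
Share of the measured members of each gene list that were called in NAC chronic against vehicle acute, in percent, with members called lower to the left of 0 and members called higher to the right. Dotted lines mark the shares over all genes described, 33.9% lower and 40.4% higher, and n is the number of members that passed the filter. Inhibitory receptors and TCR-induced genes reach farthest to the right, and DNA replication genes, all lower, farthest to the left. The list labelled cytosolic heat shock genes includes the mitochondrial chaperonin gene Hspd1.

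Beyond the acute level lay the 627 genes that were above it with NAC and below it with vehicle, and the 285 that were below it with NAC and above it with vehicle. With every library rescaled to the same median, 385 and 457 genes met these rules, so which direction held more of them depended on the scaling. Only 17 of the higher and 15 of the lower genes were at least 2-fold away in both comparisons. Among the higher genes with the largest changes, Arl5c, a gene of the ARF family of small GTPases, had 80.6, 85.1 and 86.3 RPKM in NAC chronic, 4.46, 4.31 and 4.22 RPKM in vehicle chronic and 19.8, 23.9 and 25.5 RPKM in vehicle acute libraries. Tspan32, a tetraspanin gene, had 64, 68 and 65.6 RPKM in NAC chronic, 3.54, 3.09 and 3.96 RPKM in vehicle chronic and 12.6, 13.4 and 13.3 RPKM in vehicle acute libraries. The change of Tspan32 over vehicle acute was called (log2 change 2.24, SE 0.074, limma adjusted p = 6.67e-16). Ms4a4c, of the membrane-spanning 4A family, had 114, 126 and 126 RPKM in NAC chronic, 9.9, 9.36 and 8.95 RPKM in vehicle chronic and 21.6, 21.4 and 22.9 RPKM in vehicle acute libraries. The change of Ms4a4c over vehicle acute was called (log2 change 2.42, SE 0.096, limma adjusted p = 1.35e-14). In each the 3 groups were apart, with vehicle acute libraries in the middle, where the rule that picked these genes places them. Lrrc32 encodes GARP, which holds latent TGF-β at the surface of regulatory T cells, and averaged 51.3 ± 0.97 RPKM in NAC chronic, 6.44 ± 0.532 RPKM in vehicle chronic and 17.6 ± 3.29 RPKM in vehicle acute cells. Pou6f1, a POU factor gene, averaged 14.4 ± 0.60 RPKM in NAC chronic, 0.157 ± 0.0393 RPKM in vehicle chronic and 5.9 ± 0.573 RPKM in vehicle acute cells. Tbc1d4, a regulator of glucose transporter traffic, averaged 13.8 ± 0.243 RPKM in NAC chronic, 0.98 ± 0.147 RPKM in vehicle chronic and 4.69 ± 0.331 RPKM in vehicle acute cells.

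In the other direction, below the acute level with NAC and above it with vehicle, stood several genes of effector function. Gzmb, the gene of granzyme B, had 1935, 1887 and 1886 RPKM in NAC chronic, 13708, 13902 and 13485 RPKM in vehicle chronic and 5716, 5334 and 4667 RPKM in vehicle acute libraries (log2 change -1.46, SE 0.11, limma adjusted p = 3.47e-10 over vehicle acute and log2 change 1.39, SE 0.11, limma adjusted p = 8.14e-10 for vehicle chronic over vehicle acute). Gzma averaged 1789 ± 18.4 RPKM in NAC chronic, 15638 ± 309.9 RPKM in vehicle chronic and 3043 ± 83.1 RPKM in vehicle acute cells. Il10, the gene of the anti-inflammatory interleukin 10, had 1.93, 1.59 and 1.24 RPKM in NAC chronic, 42, 41.4 and 41.9 RPKM in vehicle chronic and 7.91, 5.63 and 4.18 RPKM in vehicle acute libraries, with vehicle acute libraries more spread than the others. Tnfrsf8, which encodes the activation receptor CD30, had 5.06, 4.4 and 4.0 RPKM in NAC chronic, 68.7, 68.2 and 67.8 RPKM in vehicle chronic and 23.2, 18.6 and 17.9 RPKM in vehicle acute libraries. Gpr15, a homing receptor gene of the large intestine, had 1.08, 1.13 and 1.21 RPKM in NAC chronic, 31.4, 29.3 and 30.0 RPKM in vehicle chronic and 5.71, 5.59 and 5.67 RPKM in vehicle acute libraries. In all 5 genes no groups overlapped, and vehicle acute cells were in the middle, as the rule for genes beyond the acute level requires. Over all genes described, 82.9% had no overlap between NAC chronic and vehicle acute libraries. Gpx8, a glutathione peroxidase gene of the endoplasmic reticulum, averaged 0.509 ± 0.224 RPKM in NAC chronic, 26.8 ± 1.88 RPKM in vehicle chronic and 2.35 ± 0.224 RPKM in vehicle acute cells. Adgrg3, an adhesion G protein-coupled receptor gene, averaged 0.879 ± 0.212 RPKM in NAC chronic, 12.8 ± 0.924 RPKM in vehicle chronic and 4.12 ± 0.206 RPKM in vehicle acute cells.

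**Figure D5:**
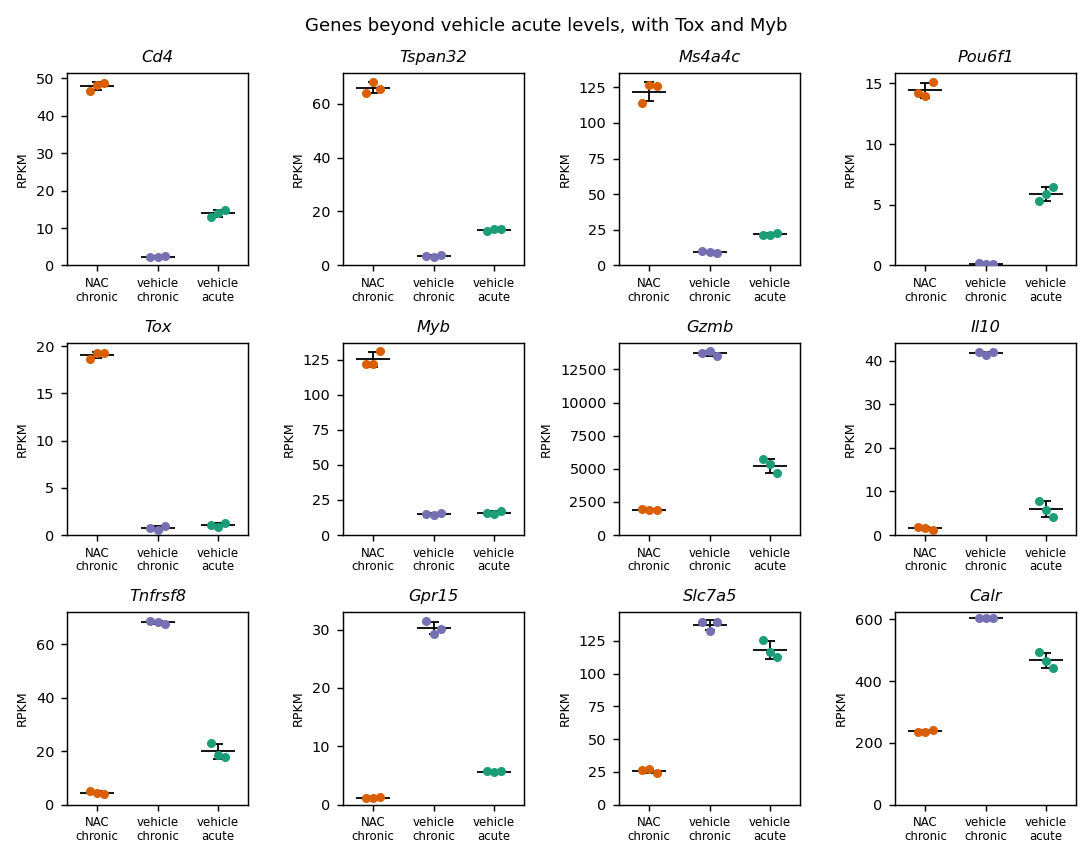
RPKM of 10 genes beyond the vehicle acute level and of Tox and Myb, with 1 panel per gene, the groups on the x axis and RPKM on the y axis. Points are libraries, and the line and bars are the mean and SD of 3 libraries. Cd4, Tspan32, Ms4a4c and Pou6f1 are above the acute level with NAC and below it with vehicle, Gzmb, Il10, Tnfrsf8, Gpr15, Slc7a5 and Calr are the reverse, and Tox and Myb are high with NAC and low in both vehicle groups.

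Markers of other cells did not all go the same way, and many were below the filter. Of the CD8 T cell list, 4 of 6 measured members were higher in NAC chronic than in vehicle acute cells and the other 2 were not called. Cd8a had 141, 137 and 137 RPKM in NAC chronic, 144, 146 and 145 RPKM in vehicle chronic and 87.3, 88.7 and 85.2 RPKM in vehicle acute libraries. Cd8b1 had 187, 182 and 184 RPKM in NAC chronic, 88.6, 88.8 and 89.1 RPKM in vehicle chronic and 179, 179 and 177 RPKM in vehicle acute libraries, and its difference from vehicle acute cells was not called (log2 change 0.046, SE 0.059, limma adjusted p = 0.53). Cd4, the coreceptor of the other main T cell lineage, was also among the genes beyond the acute level: 46.7, 48.2 and 48.9 RPKM in NAC chronic, 2.39, 2.16 and 2.63 RPKM in vehicle chronic and 13, 14.1 and 14.7 RPKM in vehicle acute libraries. The change of Cd4 over vehicle acute was called (log2 change 1.71, SE 0.097, limma adjusted p = 3.59e-12). Of the CD4 T cell list 4 of 5 members were higher and 1 lower. The lower member, Cd40lg, averaged 2.32 ± 0.258 RPKM in NAC chronic, 0.428 ± 0.0651 RPKM in vehicle chronic and 4.01 ± 0.535 RPKM in vehicle acute cells. The summed level of the 5 members was 222 to 225 RPKM in NAC chronic libraries, 188 to 192 RPKM in vehicle chronic libraries and 75.6 to 83.5 RPKM in vehicle acute libraries. Most of that sum was Ctla4, and Foxp3, the factor of regulatory T cells, had 3.26, 2.91 and 3.17 RPKM in NAC chronic, 0.718, 0.697 and 0.574 RPKM in vehicle chronic and 0.166, 0.433 and 0.237 RPKM in vehicle acute libraries. Of the myeloid list 3 of 8 genes passed the filter and all 3 were higher (Itgam, Itgax and Cd68). The measured genes of the list summed to 52.3 to 55.8 RPKM in NAC chronic libraries, 24.7 to 27.9 RPKM in vehicle chronic libraries and 10.9 to 14.9 RPKM in vehicle acute libraries. Cd14, Mpeg1 and Adgre1 of this list were below the filter, and Lyz2 and Csf1r were not in the deposited table. Itgam passed through NAC chronic libraries alone, so it had to be higher. Of 10 B cell markers 2 passed, Cd79a and Cd79b, and both were higher, although Cd79a passed through NAC chronic libraries alone. The list summed to 11.9 to 12.9 RPKM in NAC chronic, 4.96 to 5.86 RPKM in vehicle chronic and 5.06 to 6.56 RPKM in vehicle acute libraries. Of 6 NK cell markers 4 passed, with Eomes higher and Nkg7 lower. Of the melanocyte list Pmel alone passed and was not called, and Tyrp1 and Tyr were at 0. No erythroid or fibroblast marker passed the filter, and some of both lists were not in the deposited table. The part of these cells in the results above was not tested.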

How the data were processed

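RNA of 9 libraries (3 groups, n = 3 each) was used, with all 21 libraries in the fit. Per the labels' protocols, RNA with poly(A) tails was turned into libraries with NEBNext Ultra chemistry. Named in the submitters' processing notes are HTSeq, edgeR, bcl2fastq 2.17 and the build mm9. Aligner, annotation, gene filter and strand use: not given in the sources used here. Reads of overlapping or antisense genes may therefore be mixed. The authors deposited RPKM, scaled to gene length and library size. Symbols were used as deposited, and 10646 of 10935 matched a mouse gene name table.

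Whole reads were recovered from the RPKM for 100% of values within 0.001 reads, which gave the depths and showed that the divisor was the sum of listed reads. Values were transformed to log2(RPKM + 1). Genes with at least 1 RPKM in at least 3 of 21 libraries (12630) entered 1 limma fit (version 3.58.1, R 4.3.3) with a mean per group, an empirical Bayes trend and 14 residual degrees of freedom. Benjamini-Hochberg adjustment ran over all 12630 genes. The fit was tested on simulated data. A gene was beyond the acute level where NAC chronic and vehicle chronic were called in opposite directions against vehicle acute. Groups came from the labels, and no libraries were identical.

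The groups, members, 27 gene lists, 8 marker lists and tests were chosen with earlier results of these data known. Named genes were, among those called and not overlapping, up to 2 per list and direction with the largest change, the 10 highest and 10 lowest changes, the 8 farthest beyond the acute level in each direction, and 12 set genes. Some of these are left out, and 64 genes, not all of them named, were added after their values were seen, beside Cd247 and markers of the marker lists. The rankings by change over all genes and beyond the acute level were made without predicted genes, small RNAs and antigen receptor segments. Same-numbered libraries correlated only weakly in their deviations, which cannot decide whether they are pairs, and the main fit did not pair them. Alternatives were another pseudocount, no filter, a stricter filter, rescaled libraries, the replicate block, 9 libraries in the fit, a 2-fold threshold, limma voom on recovered reads and leaving out each library. No coordinates are given in mm9. RefSeq promoters are from build GRCm38.p6.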

Additional observations from a re-analysis of the deposited data

How the results depend on the processing

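Counts for NAC chronic against vehicle acute stayed within 1.5 times their value under every alternative except the 2-fold threshold. With limma voom on the recovered reads 4545 genes were higher and 3783 lower. With the replicate block 4517 were higher and 3763 lower. Same-numbered libraries correlated by -0.030 to 0.079 in their deviations from group means, and libraries of unlike number by -0.078 to 0.045. Values this weak cannot decide whether the numbers pair the libraries. Leaving out 1 library gave 4120 to 4289 higher and 3511 to 3576 lower genes for NAC chronic against vehicle acute, 2598 to 2676 and 3964 to 4008 for vehicle chronic against vehicle acute, 4431 to 4466 and 2433 to 2471 for NAC chronic against vehicle chronic, and 503 to 553 and 247 to 269 for genes beyond the acute level. At least 2-fold, the counts were 1054 and 590, 638 and 593, 739 and 349, and 17 and 15 in the same order. Beyond the acute level, libraries rescaled to a common median gave 385 higher and 457 lower genes, and the cause was not tested further.

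Of 202 named genes, 197 had the same call in NAC chronic against vehicle acute under every alternative tried for genes. Cd8b1, not called in the full fit, passed with 9 libraries in the fit (limma adjusted p = 0.034). The others, Il18r1, Sesn1, Trp53inp1 and Vegfa, rest on small differences. No call reversed. Of 756 list counts, 705 stayed within 1.5 times, and most of the 51 that moved did so at the 2-fold threshold. The lone cell cycle gene called higher became 2 or 3 under several alternatives. With 3 libraries a group, small differences of low genes were the least certain.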

Other observations

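Some gene groups of cell survival, lipid synthesis and innate-type receptors are given here as values. Of 15 measured BCL2 family genes, 7 were higher and 6 lower in NAC chronic than in vehicle acute cells (median log2 change -0.15). Over all genes described 40.4% were higher and 33.9% lower. Bcl2l11, the gene of the death-promoting protein BIM, had 80.8, 77.5 and 76.7 RPKM in NAC chronic, 41.9, 42.7 and 42.1 RPKM in vehicle chronic and 14.5, 16.8 and 17.9 RPKM in vehicle acute libraries, the highest libraries being those with NAC (log2 change 2.19, SE 0.061, limma adjusted p = 4.43e-17 over vehicle acute). Bcl2, the gene of the survival protein, had 42.1, 43.2 and 44.4 RPKM in NAC chronic, 23.5, 23.7 and 23.6 RPKM in vehicle chronic and 83.5, 74.6 and 74.2 RPKM in vehicle acute libraries, with NAC chronic libraries between the other groups. Bcl2a1d averaged 116 ± 2.06 RPKM in NAC chronic, 143 ± 3.56 RPKM in vehicle chronic and 8.17 ± 0.573 RPKM in vehicle acute cells, and it shares near-identical copies, so its reads may be divided among them. Of 19 p53 target genes that passed the filter, 6 were higher and 10 lower (median log2 change -0.20), beside the same shares over all genes. Cdkn1a, the cell cycle inhibitor p21, had 55.8, 56.1 and 56.4 RPKM in NAC chronic, 132, 129 and 136 RPKM in vehicle chronic and 139, 140.1 and 127 RPKM in vehicle acute libraries, low with NAC alone. Plk2, a stress-responsive polo-like kinase gene, averaged 128 ± 3.24 RPKM in NAC chronic, 46.2 ± 0.715 RPKM in vehicle chronic and 2.42 ± 0.314 RPKM in vehicle acute cells.

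Of 29 genes of sterol and fatty acid synthesis that passed the filter, 16 were higher and 5 lower in NAC chronic than in vehicle acute cells (median log2 change 0.19, and 0.20 for vehicle chronic over vehicle acute). Insig1, a feedback regulator of sterol synthesis, had 87.6, 84.1 and 81.9 RPKM in NAC chronic, 58.8, 60.1 and 57.3 RPKM in vehicle chronic and 38.7, 36.3 and 35.1 RPKM in vehicle acute libraries. Scd1, the stearoyl-CoA desaturase gene, averaged 38 ± 2.5 RPKM in NAC chronic, 47.3 ± 1.42 RPKM in vehicle chronic and 11.6 ± 0.739 RPKM in vehicle acute cells. Abcg1, a cholesterol exporter gene, was lower, averaging 2.66 ± 0.454 RPKM in NAC chronic, 1.24 ± 0.0915 RPKM in vehicle chronic and 8.49 ± 1.38 RPKM in vehicle acute cells. Of 16 genes of NK receptors on T cells that passed the filter, 8 were higher and 4 lower (median log2 change 0.53). Klrk1, the gene of the activating receptor NKG2D, had 191, 185 and 184 RPKM in NAC chronic, 109, 107 and 107 RPKM in vehicle chronic and 60.0, 64.2 and 65.1 RPKM in vehicle acute libraries, the highest libraries again being those with NAC. Tyrobp, the signalling adaptor DAP12, averaged 7.71 ± 1.51 RPKM in NAC chronic, 34.7 ± 3.19 RPKM in vehicle chronic and 2.56 ± 0.604 RPKM in vehicle acute cells.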
